A study of Arabidopsis thaliana with 4 samples.

Results

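The hho2 allele was examined across both states of PHR1 at once in Arabidopsis thaliana grown without phosphate. The mean log2(FPKM + 1) of the hho2-1 and hho2phr1 libraries was compared with that of the Col-0 and phr1 libraries, 2 libraries a side. Of 33557 genes in the deposited table, 20650 had an FPKM of at least 1 in any of the 4 libraries, and 20643 of these were tested after 7 with a failed estimate were left out. FPKM is a fragment count scaled by transcript length and library size, and all log2 differences below are on the log2(FPKM + 1) scale, which understates the fold of low genes.

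The 4 libraries of polyadenylated RNA came from plants kept for 7 days on vertical agar plates lacking phosphate, so no group had phosphate. All were of the Col-0 ecotype, and each genotype had 1 library. The Col-0 group carried both wild-type genes, hho2-1 and phr1 were each a single SALK T-DNA insertion line, and hho2phr1 was the double mutant. The labels do not give the harvested organ, the position of either insertion, a second allele, or how many plants were pooled. Each hho2 library has its own partner, Col-0 for hho2-1 and phr1 for hho2phr1, so the PHR1 and phr1 backgrounds give separate differences whose mean is the pooled difference. With 1 library per genotype, an adjusted p below sets the pooled difference only against how far the 2 backgrounds fail to add up. That error has 1 residual degree of freedom and is moderated by limma with the error of other genes (4.14 prior degrees of freedom). The adjusted p does not measure the spread between plants.

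HHO2 is a GARP-type transcription factor related to HRS1. Members of this family are known in Arabidopsis as repressors that link nitrate and phosphate responses, acting on nitrate uptake genes and on phosphate starvation genes. PHR1 is the MYB-related activator of the phosphate starvation response. The pooled contrast asks what differed with the hho2 allele on average over both PHR1 states, and a pooled value can come from 1 state alone.

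Depth behind the FPKM values was estimated at 39400000 to 47900000 fragments, and for the median gene of at least 10 FPKM the authors' 95% interval reached 22.8% above and below the value. The metallothionein gene MT1A alone held 11.2% to 17.2% of all FPKM. Rescaling to equal FPKM sums moved the median pooled difference of all genes from -0.0008 to 0.064, so small shifts of a list are read beside that of all genes. The gene lists were chosen with earlier results of these data known. A distance of a list from all genes is therefore a description and not independent evidence.

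HHO2 itself (AT1G68670) lies on chromosome 1 of TAIR10, from 25782029 to 25784076. Its FPKM was 90.7 in Col-0, 59.8 in hho2-1, 81.2 in phr1 and 51.8 in hho2phr1. Both libraries of the hho2 allele were below both others, but transcript remained. Its pooled difference was -0.62, with -0.59 and -0.64 in the PHR1 and phr1 backgrounds, and limma's adjusted p was 0.435. The authors' intervals overlapped in the PHR1 background and stood apart in the phr1 background. The FPKM of PHR1 was 37.7 in Col-0, 43.2 in hho2-1, 7.54 in phr1 and 6.499 in hho2phr1. Its pooled hho2 difference was 0.001. Among the 20 tested genes nearest to HHO2 on the chromosome, pooled differences ran from -0.23 to 0.27, and 10 lay above 0.

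HHO3, a close relative of HHO2, differed the opposite way. It stood at 110.8 FPKM in Col-0, 186.0 in hho2-1, 107.2 in phr1 and 149.1 in hho2phr1. Both hho2 libraries were above both others, by 0.74 and 0.47, with a pooled difference of 0.61 and a limma adjusted p of 0.591. The authors' intervals stood apart in the PHR1 background and overlapped in the phr1 background. HHO6 (pooled 0.29) and HHO5 (0.15) also lay above 0 in both backgrounds. HHO4, HHO1 and HRS1 were above 0 in the PHR1 background and below 0 in the phr1 background. HRS1 had a pooled difference of -0.05, which became 0.02 after rescaling to equal sums. The median over the 7 family members was 0.15, and 0 passed limma.

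**Figure D1:**
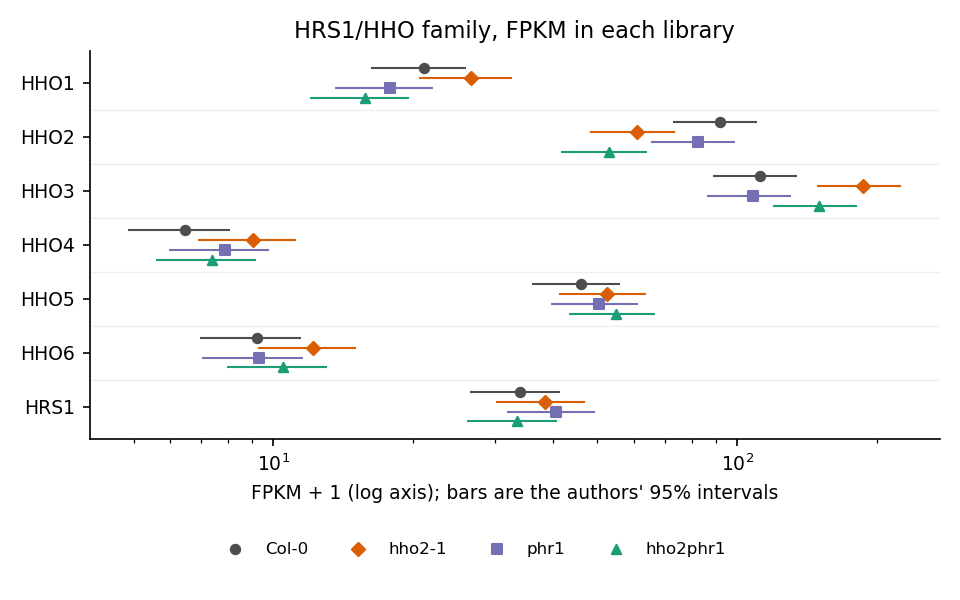
FPKM + 1 of the 7 HRS1/HHO family genes on a log axis, 1 point per library, with bars for the authors' 95% intervals. HHO2 is lower in hho2-1 and hho2phr1 (59.8 and 51.8 FPKM) than in Col-0 and phr1 (90.7 and 81.2), and HHO3 is higher (186.0 and 149.1 against 110.8 and 107.2).

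Across the transcriptome, the hho2 allele gave few shared differences. The middle 90% of tested genes had pooled differences between -0.25 and 0.25. The hho2-1 minus Col-0 and hho2phr1 minus phr1 differences had the same sign in 48.6% of genes. Their correlation across the 20643 genes was r = 0.10 (Spearman's rho = -0.04), and across 11790 genes of at least 10 FPKM in all libraries it was r = 0.0003 (rho = -0.01). These are descriptions over genes, which are not independent replicates, of 2 differences that share no library.

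The test over all genes called 8, or 0.0388% of those tested, at a limma adjusted p of 0.05 (Benjamini-Hochberg). Of these, 3 were higher with the hho2 allele (0.0145%) and 5 lower (0.0242%). Without adjustment, 964 genes (4.67%) had a limma p under 0.05. Of the 8 called genes, 7 had transcripts under 200 nucleotides: the microRNA precursors MIR156D and MIR775A and the short gene AT5G40981 were higher, and MIR160B, MIR156E, AT5G46417 and AT3G15111 lower. Each of these was listed at 0 in both libraries of one side. MIR156D, for example, was at 0 in Col-0 and phr1, at 25.9 FPKM in hho2-1 and at 28.6 in hho2phr1. MIR160B was at 0 in both hho2 libraries, with 33.3 FPKM for Col-0 and 40.4 for phr1. Scaled to the same depth, the nonzero values of 6 of the 7 genes differed by a ratio of 1.00, and those of AT3G15111 by 2.0. The authors' lower bound was 0 in every library for all 7, so the values lie at the step of the smallest fragment counts. Polyadenylated RNA also holds precursor transcripts and not mature microRNAs.

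AT2G43240 was the 1 called gene with a longer transcript. It encodes a member of the nucleotide-sugar transporter family, which carries activated sugars across membranes, and lies on TAIR10 chromosome 2 at 17970859 to 17975867, on another chromosome than HHO2. It stood at 10.5 FPKM in Col-0, 0.745 in hho2-1, 9.92 in phr1 and 0.792 in hho2phr1. The 2 hho2 libraries were thus nearly equal and far below the other pair. The gene reached 1 FPKM only in Col-0 and phr1, so the filter admitted it through the side where it was high. It drops out where at least 1 FPKM is required in all 4 libraries. The differences were -2.72 in the PHR1 background and -2.61 in the phr1 background, -2.66 pooled, with a limma adjusted p of 0.0183. The limma call was lost with no filter on low values (adjusted p 0.131), with a filter at 5 FPKM (0.113) and after rescaling to equal sums (0.0550). With any 1 library left out and PHR1 state taken out of the model, the difference ran from -2.70 to -2.63. With PHR1 state kept in the model, leaving a library out only returns the difference of the other background, so it is no separate check. In the fit without transcripts under 200 nucleotides, an alternative added after the data were seen, AT2G43240 was the only call, at a limma adjusted p of 0.0164.

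A pooled difference of at least 1, called 2-fold here, was reached by 134 genes (0.649%), 75 higher (0.363%) and 59 lower (0.286%). Of these, 96 had transcripts under 200 nucleotides. Among the other 38, 26 were higher and 12 lower. Of all 134, 64 had a difference under 0.1 in 1 of the backgrounds, so that the pooled value came from the other. Only 42 were 2-fold the same way in each background, 23 higher and 19 lower. Of these, 14 higher and 6 lower genes had transcripts of at least 200 nucleotides. Over all tested genes, 20 were 2-fold in each background in opposite ways.

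Some of the larger pooled values rested largely on 1 library. HEI10, a RING protein of meiotic crossover formation, was at 30.9 FPKM in Col-0 and at 1.73, 1.396 and 1.38 in hho2-1, phr1 and hho2phr1. MRD1, which shares its interval in the table with HEI10, so that reads of the pair may have been divided between them, was at 10.06 FPKM in Col-0 and at 0.047, 0.081 and 0.367 in the other libraries. SAG12, a cysteine protease gene of late senescence, was at 6.25 FPKM in Col-0 and at 1.04, 1.04 and 0.421 in the rest. Their pooled differences were -1.78, -1.53 and -1.17, while in the phr1 background HEI10 differed by -0.01, MRD1 by 0.34 and SAG12 by -0.52. AT3G01345 rested on a high phr1 library, at 15.6 FPKM there and 0.281, 0.221 and 0.331 in Col-0, hho2-1 and hho2phr1.

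**Figure D2:**
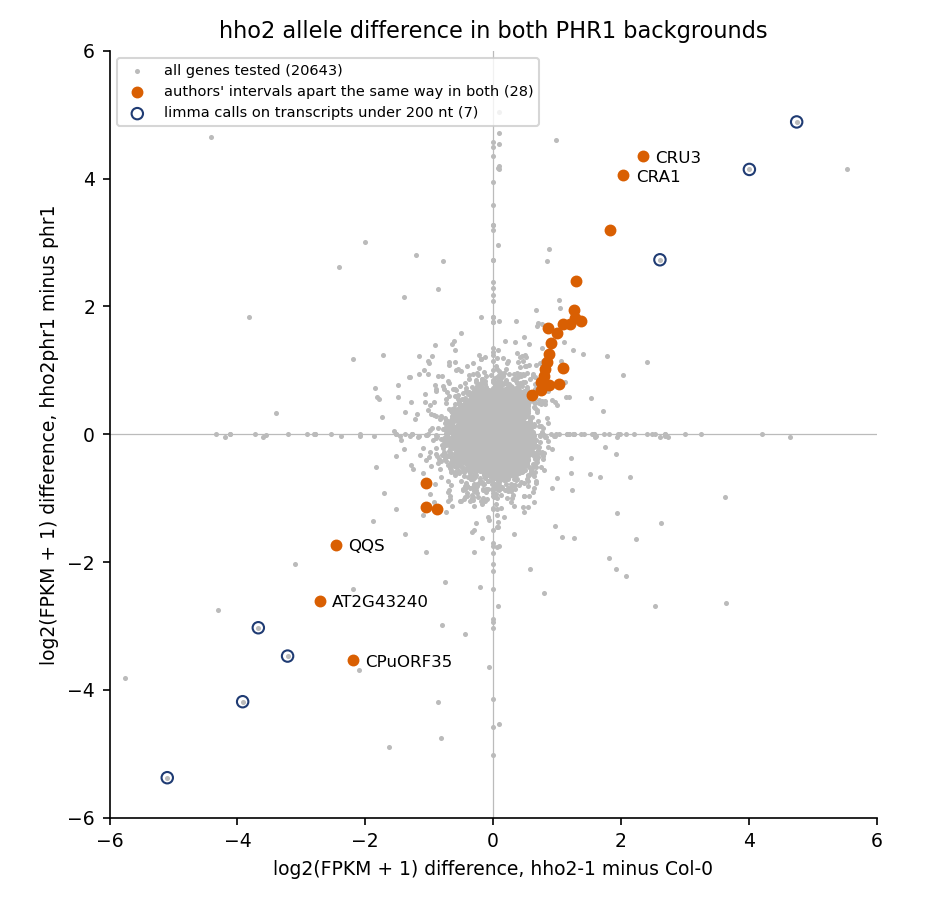
Each grey point is 1 of 20643 tested genes, with its log2(FPKM + 1) difference hho2-1 minus Col-0 on the x axis and hho2phr1 minus phr1 on the y axis. Filled orange points are 28 genes whose authors' intervals stood apart the same way in both backgrounds, and open circles are the 7 limma calls on transcripts under 200 nucleotides. The grey mass is round (r = 0.10), and points on either axis moved in 1 background only.

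The authors' own intervals gave a second view of the same 4 libraries that does not use the limma error. With 1 library per genotype, these intervals hold no measured spread between plants of a genotype. In hho2-1 against Col-0, 49 genes stood higher and 55 lower with intervals apart. In hho2phr1 against phr1, 146 stood higher and 74 lower. Intervals were apart the same way in both backgrounds for 28 genes, 0.136% of those tested, of which 22 were higher (0.107%) and 6 lower (0.0291%). The 22 are 44.9% of the 49 and 15.1% of the 146, and the 6 are 10.9% of the 55 and 8.11% of the 74. Of the 22, 11 reached 1 FPKM only in libraries with the hho2 allele, and 6 reached it in all 4 libraries. Of the 6 lower genes, 2 (AT2G43240 and CPuORF35) reached it only in Col-0 or phr1, and 3 in all 4. The filter thus admitted some of these genes through the side where they were high, and the split of 22 against 6 is a description. Another 6 genes had intervals apart in opposite directions. The genes from these 28 that are named below were chosen after their values were seen, and 1 of the 28, AT2G43240, passed limma.

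**Figure D3:**
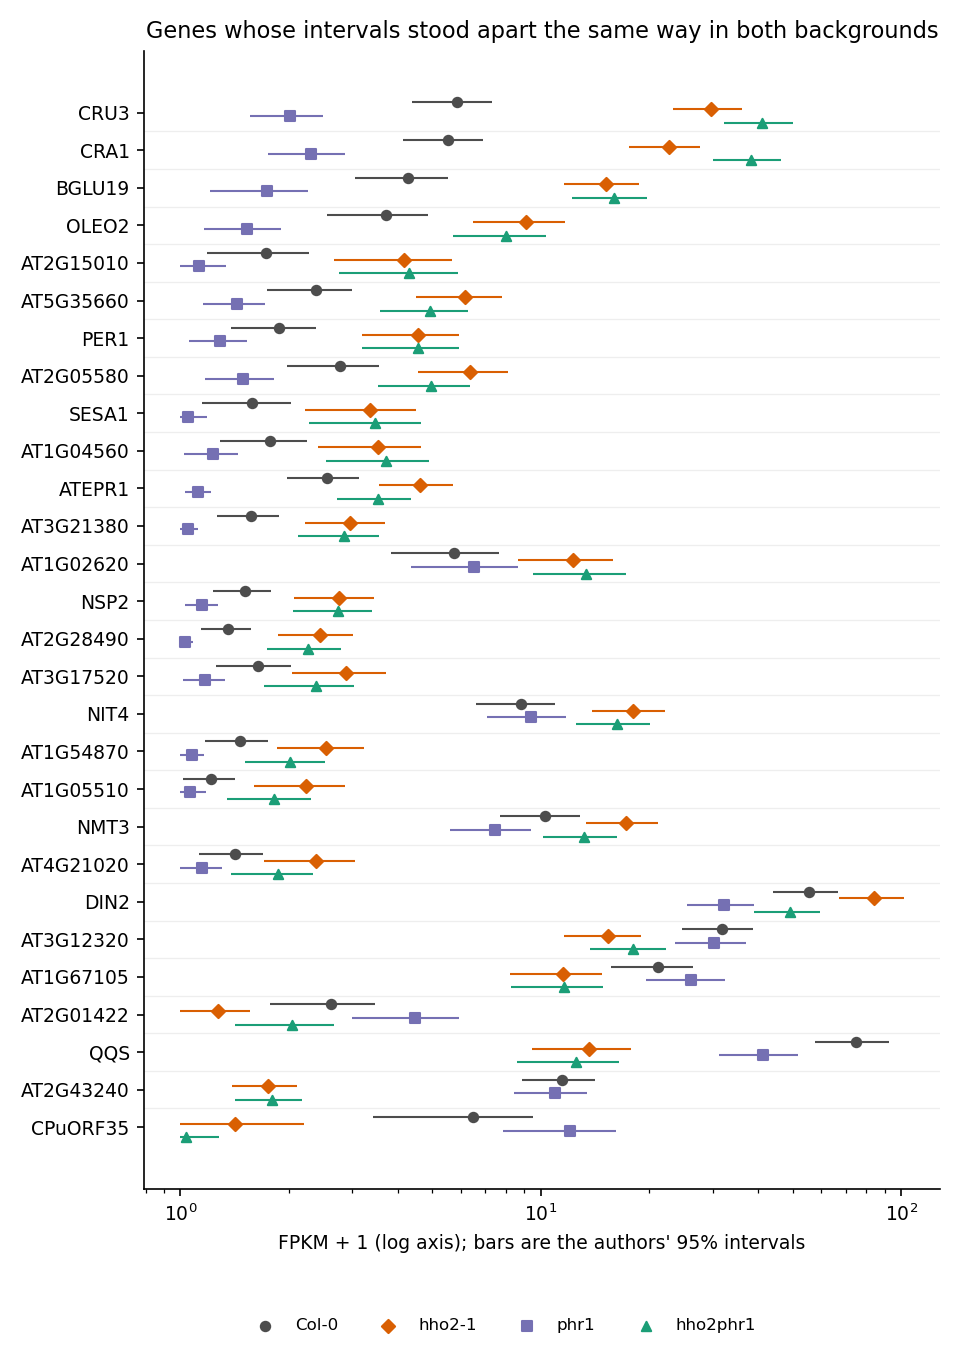
FPKM + 1 on a log axis for the 28 genes whose authors' 95% intervals (bars) stood apart the same way in both backgrounds, 1 point per library. In the upper 22 genes hho2-1 lies right of Col-0 and hho2phr1 right of phr1, with phr1 lowest in 20, and in the lower 6 genes each lies left of its partner.

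Several of the 22 higher genes are genes of seed filling. Seeds store cruciferins and albumins as protein reserves and oil in bodies coated by oleosins, and this programme is normally shut down after germination. CRU3, a cruciferin gene, is AT4G28520 on chromosome 4 (14087556 to 14089796). It had 4.84 FPKM in Col-0, 28.7 in hho2-1, 1.02 in phr1 and 40.1 in hho2phr1. Its pooled difference was 3.35, from 2.34 and 4.35, and limma's adjusted p was 0.400. CRA1, another cruciferin gene (AT5G44120), stood at 4.53 FPKM in Col-0, 21.6 in hho2-1, 1.31 in phr1 and 37.2 in hho2phr1. OLEO2, an oleosin gene (AT5G40420), stood at 2.71, 8.09, 0.530 and 7.02 FPKM in the same order. In all 3 genes the hho2 libraries were both above the others, but Col-0 was also above phr1, so the libraries with intact HHO2 differed between themselves.

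The sequence just upstream of both cruciferin genes is shown because seed genes are known to carry RY elements (CATGCA), bound by B3 factors such as ABI3 and FUS3, and ACGTG cores, bound by bZIP factors including those of abscisic acid signalling. Capitals mark CATGCA and ACGTG on either strand, where the reverse strand reads TGCATG and CACGT. Each is 250 bases before the annotated gene start in TAIR10.1, written along the gene's strand.
CRU3, chr4:14087306-14087555, plus strand: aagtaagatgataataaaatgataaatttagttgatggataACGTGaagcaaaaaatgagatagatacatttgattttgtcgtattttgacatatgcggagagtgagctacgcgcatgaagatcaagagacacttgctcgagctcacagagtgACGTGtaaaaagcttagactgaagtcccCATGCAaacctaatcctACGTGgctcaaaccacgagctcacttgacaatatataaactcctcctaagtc
CRA1, chr5:17758337-17758586, minus strand: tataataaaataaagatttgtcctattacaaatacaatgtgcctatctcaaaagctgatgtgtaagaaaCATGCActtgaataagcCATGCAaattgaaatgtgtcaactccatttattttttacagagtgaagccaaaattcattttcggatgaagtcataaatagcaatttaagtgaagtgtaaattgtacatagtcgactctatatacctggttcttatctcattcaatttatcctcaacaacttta

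CRU3 carried 1 CATGCA and 3 ACGTG matches, while CRA1 carried 2 CATGCA matches. Of the 22 genes with higher values in both backgrounds, 10 had CATGCA in this window (45.5%), against 7.75% of 20544 promoters of tested genes. At least 2 matches were found in 8 of the 22 (36.4%), against 1.45% of all. ACGTG was found in 13 of the 22 (59.1%), against 23.9% of all. The PHR1 binding motif GNATATNC was found in 1 of the 22 (4.55%), against 5.63% of all. Of the motifs known from DNA binding by the HRS1/HHO family, GAATC was found in 4 of the 22 (18.18%), against 39.1% of all, and GAATATTC in 1 (4.55%), against 0.901%. The same gene, DIN2, holds the matches to GAATATTC, GNATATNC and the heat shock motif GAANNTTC, because the letters of these motifs overlap. A match is a description of letters and not a site of binding. The 22 genes were picked on these same values, and 11 of them passed the filter only in libraries with the hho2 allele. The motif shares therefore describe this set, and a role of any factor that binds these motifs was not tested.

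Over the list of seed storage and oil body genes, 7 of 16 passed the filter, 2 of them (SESA1 and SESA2) only through a library with the hho2 allele, which favours a higher value there. As a description of these 7, 6 lay above 0 in both backgrounds. Their median was 1.56 pooled, 1.09 in the PHR1 background and 2.095 in the phr1 background, beside -0.0008 pooled for all genes. It moved with the settings, to 0.26 with no filter, 0.62 with a pseudocount of 5, 2.81 with a pseudocount of 0.1 and 3.19 over the 2 genes of at least 1 FPKM in all 4 libraries, CRU3 and CRA1. The albumin gene SESA1 was at 0.584 FPKM in Col-0, 2.36 in hho2-1, 0.051 in phr1 and 2.46 in hho2phr1. OLEO1 was at 1.39, 3.85, 0.108 and 3.73 FPKM in the same order, with intervals apart in the phr1 background only. OLEO4 lay the other way, at 1.68, 1.23, 1.66 and 0.990 FPKM. The summed FPKM of the 7 was 15.96 in Col-0, 66.5 in hho2-1, 4.67 in phr1 and 92.7 in hho2phr1. None of the 7 passed limma, and 5 were 2-fold higher (background 0.363%). The other 9 members stayed under 1 FPKM in every library, among them the cruciferin gene CRB, which was listed at 0 in 3 libraries, and the albumin genes SESA3 and SESA4.

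Genes of seed maturation were tested in 4 of 11 cases, with a median of 0.78, or 0.25 over the 3 of at least 1 FPKM in all libraries and 0.19 with no filter. PER1 passed the filter only through libraries with the hho2 allele. PER1, a peroxiredoxin of embryo and aleurone, was at 0.878 FPKM in Col-0, 3.56 in hho2-1, 0.291 in phr1 and 3.55 in hho2phr1. LEA18, a late embryogenesis abundant protein gene, was at 3.16, 5.66, 1.07 and 6.95 FPKM in the same order. DOG1, which sets seed dormancy, differed by 0.25, and the bZIP gene ABI5 by -0.14. Of the regulators of the seed programme, LEC1, LEC2, FUS3, ABI3 and ABI4 were all under 1 FPKM in every library. ABI3 was at 0.007 FPKM in Col-0, 0.136 in hho2-1, 0 in phr1 and 0.150 in hho2phr1. ABI4 went the other way, at 0.080, 0, 0.097 and 0 FPKM in the same order. FUS3 was at 0.230, 0.265, 0.301 and 0.334 FPKM, LEC1 at 0, 0.030, 0.035 and 0.067, and LEC2 at 0, 0, 0.068 and 0. These regulators thus had no shared direction, at values near the floor.

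Of the 22, 5 are on these lists (4 and 1), and the other 17 were not chosen as seed genes. Among them are a cupin superfamily gene (AT2G28490), a thionin gene (AT2G15010) and late embryogenesis abundant family genes (AT3G17520 and AT4G21020). Their pooled differences were 0.99 for AT2G28490, 1.60 for AT2G15010, 0.91 for AT3G17520 and 0.72 for AT4G21020. The beta-glucosidase gene BGLU19 shares its interval with another gene and had a pooled difference of 2.51. Of the 22, 15 were under 10 FPKM in all libraries, 20 were lowest in phr1, and 18 had the larger difference in the phr1 background. In bulk RNA, fewer cells of a type and less RNA per cell cannot be told apart, and the part of seed tissue in these values was not tested.

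Others of the 22 are on neither seed list. NIT4, a nitrilase that detoxifies cyanoalanine, was at 7.79 FPKM in Col-0, 16.95 in hho2-1, 8.40 in phr1 and 15.3 in hho2phr1. AT1G02620, of the Ras-related small GTPase family, was at 4.74, 11.2, 5.50 and 12.4 FPKM in the same order. In both genes Col-0 and phr1 were close to each other, as were hho2-1 and hho2phr1. The pooled differences were 0.91 for NIT4 and 1.07 for AT1G02620, with limma adjusted p of 0.387 and 0.201. DIN2, a dark-inducible beta-glucosidase gene, was at 54.5 FPKM in Col-0, 83.2 in hho2-1, 31.2 in phr1 and 48.2 in hho2phr1. Its difference was 0.60 and 0.61 in the PHR1 and phr1 backgrounds.

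The 6 genes lower in both backgrounds were AT2G43240, QQS, AT3G12320, the noncoding RNA genes AT1G67105 and AT2G01422, and CPuORF35. QQS, an orphan gene of Arabidopsis that affects leaf starch and protein content (AT3G30720, chromosome 3, 12349047 to 12349832), had 73.9 FPKM in Col-0, 12.6 in hho2-1, 40.4 in phr1 and 11.5 in hho2phr1. The hho2 libraries were nearly equal, while Col-0 and phr1 differed. The pooled difference was -2.095, from -2.46 and -1.73, with a limma adjusted p of 0.157. AT1G67105 was at 20.1 FPKM in Col-0, 10.5 in hho2-1, 25.04 in phr1 and 10.6 in hho2phr1, with a pooled difference of -1.02 and a limma adjusted p of 0.283. AT2G01422 was at 1.62, 0.270, 3.47 and 1.04 FPKM in the same order, a pooled difference of -1.09. CPuORF35, annotated as a conserved upstream reading frame, shares its interval with another gene, so its pooled -2.86 depends on how reads were divided.

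The windows upstream of the lower genes with the largest differences on unshared intervals are shown for comparison with those of the cruciferin genes, with the same use of capitals.
AT2G43240, chr2:17975939-17976188, minus strand: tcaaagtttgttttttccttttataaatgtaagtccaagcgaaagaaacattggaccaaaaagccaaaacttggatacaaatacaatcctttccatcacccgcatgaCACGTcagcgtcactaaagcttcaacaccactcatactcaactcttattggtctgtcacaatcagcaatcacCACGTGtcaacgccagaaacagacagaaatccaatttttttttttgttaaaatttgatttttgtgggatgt
QQS, chr3:12348797-12349046, plus strand: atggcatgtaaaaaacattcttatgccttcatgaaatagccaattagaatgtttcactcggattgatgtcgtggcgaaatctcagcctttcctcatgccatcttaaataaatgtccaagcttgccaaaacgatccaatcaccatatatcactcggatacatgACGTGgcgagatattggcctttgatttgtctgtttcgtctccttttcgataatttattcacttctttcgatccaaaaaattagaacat

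AT2G43240 carried 3 ACGTG matches, of which 2 are the strands of a single CACGTG, and QQS carried 1. Neither carried any of the other 5 motifs searched. Over the 5 lower genes with a reference start, ACGTG was found in 3, and each of the other motifs in 0.

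Among the 13 circadian clock genes, CCA1, RVE1, LHY and RVE8 had the lowest pooled differences, without passing limma. CCA1 and LHY are MYB-related repressors that peak at dawn, RVE8 is a related activator, and RVE1 links the clock to auxin. CCA1 was at 11.2 FPKM in Col-0, 6.68 in hho2-1, 8.02 in phr1 and 5.22 in hho2phr1, a pooled difference of -0.60 (limma adjusted p 0.649). LHY was at 6.21, 3.65, 4.30 and 3.12 FPKM in the same order, a pooled difference of -0.50. RVE1 was at 10.8 FPKM in Col-0, 6.45 in hho2-1, 10.3 in phr1 and 7.23 in hho2phr1, a pooled difference of -0.56. For these 3 genes both hho2 libraries lay below both others. RVE8 differed by -0.52 and -0.29 in the PHR1 and phr1 backgrounds. AT3G12320, 1 of the 6 genes with intervals apart, is not on the clock list and was at 30.7 FPKM in Col-0, 14.3 in hho2-1, 29.3 in phr1 and 16.96 in hho2phr1 (pooled -0.90, limma adjusted p 0.395).

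Of the 13 clock genes, 6 lay below 0 in both backgrounds (all genes 25%) and 2 above (all genes 23.6%). The other members below 0 in both were PRR9 and LUX, and those above were PRR7 (pooled 0.25) and ELF4 (0.12). GI, TOC1, PRR5 and FKF1 had pooled differences of 0.09, 0.07, 0.06 and 0.22. The list had no single direction: its median was -0.13 in the PHR1 background and -0.12 in the phr1 background, but 0.06 for the pooled values, and -0.08 without genes that share an interval. CCA1 alone had intervals apart, in the PHR1 background. The labels do not give the hour of harvest.

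**Figure D4:**
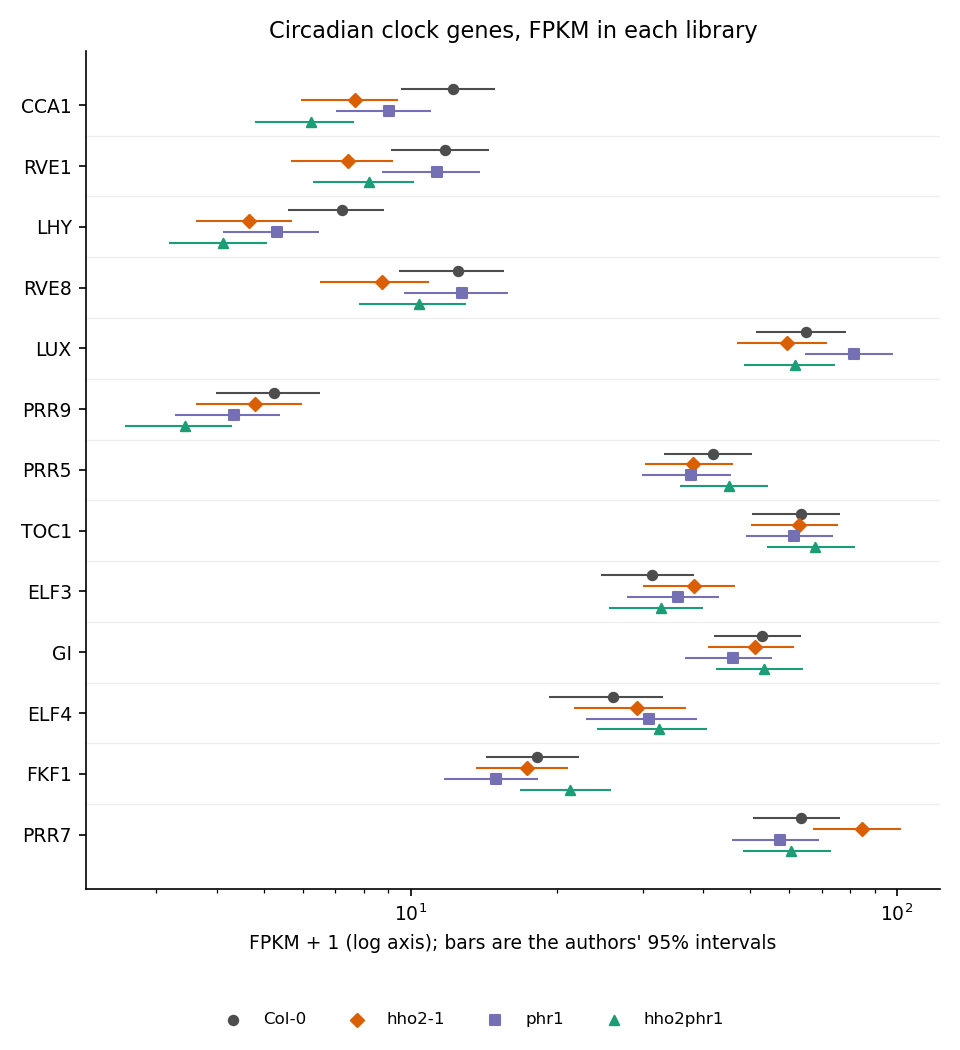
FPKM + 1 of 13 clock genes on a log axis, 1 point per library, with the authors' 95% intervals as bars, ordered by pooled difference. CCA1, RVE1, LHY and RVE8 at the top have both hho2 libraries left of their partner libraries, by a pooled 0.41 to 0.60 on the log2 scale, with most bars overlapping.

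Nuclear photosynthesis genes, the marker list for green tissue, lay above 0 in 24 of 25 cases. They encode light-harvesting proteins, photosystem subunits and Rubisco small subunits. Of the 25, 18 were above 0 in both backgrounds (all genes 23.6%), and 0 below in both. The median was 0.33 pooled, with 0.11 in the PHR1 background and 0.49 in the phr1 background. LHCB1.1, a light-harvesting gene with near-identical copies, was at 187.9 FPKM in Col-0, 212.7 in hho2-1, 106.3 in phr1 and 293.5 in hho2phr1, a pooled difference of 0.82. LHCB3, a light-harvesting gene of photosystem II, was at 420.1, 537.9, 347.4 and 616.8 FPKM in the same order, a pooled difference of 0.59 (limma adjusted p 0.810). RBCS2B, a Rubisco small subunit gene, was the member with the largest difference in the PHR1 background, at 63.9 FPKM in Col-0, 93.4 in hho2-1, 62.5 in phr1 and 79.4 in hho2phr1. None passed limma or had intervals apart in both backgrounds.

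The root marker lists did not move in one direction. Root hair genes had a pooled median of -0.002 over 13 genes, root meristem genes 0.01 over 7, and endodermis genes -0.03 over 16. Summed FPKM of the photosynthesis list ran from 21343 in phr1 to 29436 in hho2phr1, with 23048 in Col-0 and 24008 in hho2-1. Both green-tissue and root markers were present in every library. The part of the share of green tissue in the other lists was not tested.

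Nitrate genes were of interest because nitrate transporter genes are known targets of the HRS1/HHO family. Of 16 tested, 13 lay above 0 and 8 above in both backgrounds, with a median of 0.12. The median was 0.02 in the PHR1 background, with 9 of 16 above 0, and 0.20 in the phr1 background, with 14 of 16. After rescaling to equal sums all 16 lay above 0, as did 14403 of all 20643 genes, against 10269 as deposited. NRT2.5, a high-affinity nitrate transporter of starved plants, was at 1.75 FPKM in Col-0, 3.097 in hho2-1, 1.31 in phr1 and 3.20 in hho2phr1. Both hho2 libraries were above both others, the pooled difference was 0.72, and limma's adjusted p was 0.749. The nitrate reductase genes NIA1 and NIA2 had pooled differences of 0.28 and 0.26, and the nitrite reductase gene NIR1 of 0.20. NRT2.1, the main high-affinity transporter, lay at -0.26 in the PHR1 background and 0.62 in the phr1 background, at 2.09 to 4.196 FPKM. The dual-affinity transporter NRT1.1 differed by 0.007. None passed limma.

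Among 10 phosphate signalling genes the median was 0.01, with 2 above and 2 below 0 in both backgrounds. The members below were the noncoding RNAs IPS1 and AT4, which sequester miR399 and so keep its target PHO2 expressed. IPS1 was at 544.4 FPKM in Col-0, 384.4 in hho2-1, 242.1 in phr1 and 145.2 in hho2phr1, a pooled difference of -0.62 (limma adjusted p 0.591). AT4 was at 1959 FPKM in Col-0, 1514 in hho2-1, 2120 in phr1 and 1560 in hho2phr1, a pooled difference of -0.41. AT4 was thus lowest in the libraries with the hho2 allele, while IPS1 was ordered first by PHR1 state. The SPX domain genes SPX1, SPX2 and SPX3, of which SPX1 and SPX2 inhibit PHR1 when phosphate is sufficient, differed by 0.02, -0.009 and -0.07. PHO2 differed by 0.15.

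Of 12 tested phosphate transport genes, 7 lay below 0 in both backgrounds (all genes 25%) and 4 above, with a median of -0.12. After rescaling to equal sums 5 lay below in both and the median was -0.05. PHT1;1, a main root uptake transporter, was at 96.4 FPKM in Col-0, 77.6 in hho2-1, 80.3 in phr1 and 66.3 in hho2phr1, a pooled difference of -0.29. PHT1;2, its near-identical neighbour, differed by -0.02 and -0.78, PHT1;9 by -0.36 and -0.39, and PHT1;8 by -0.21 and -0.45 in the PHR1 and phr1 backgrounds. PHO1, which loads phosphate into the xylem, was at 115.3 and 112.8 FPKM in Col-0 and phr1, against 101.3 and 100.6 in hho2-1 and hho2phr1. PHT1;5 lay the other way, with a pooled difference of 0.50. None passed limma, and reads of the PHT1;1 and PHT1;2 copies may have been divided between them.

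The median was 0.06 over 13 genes of phosphatases and ribonucleases, and 0.08 over 14 of membrane lipids. RNS1, a secreted ribonuclease, was at 27.2 FPKM in Col-0, 33.8 in hho2-1, 25.1 in phr1 and 46.6 in hho2phr1, a pooled difference of 0.59. The phosphatases PAP10, PAP12 and PAP17 differed by 0.06, -0.05 and -0.03, and PS2 by 0.07. The membrane lipid members ran from -0.05 to 0.24. None passed limma.

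**Figure D5:**
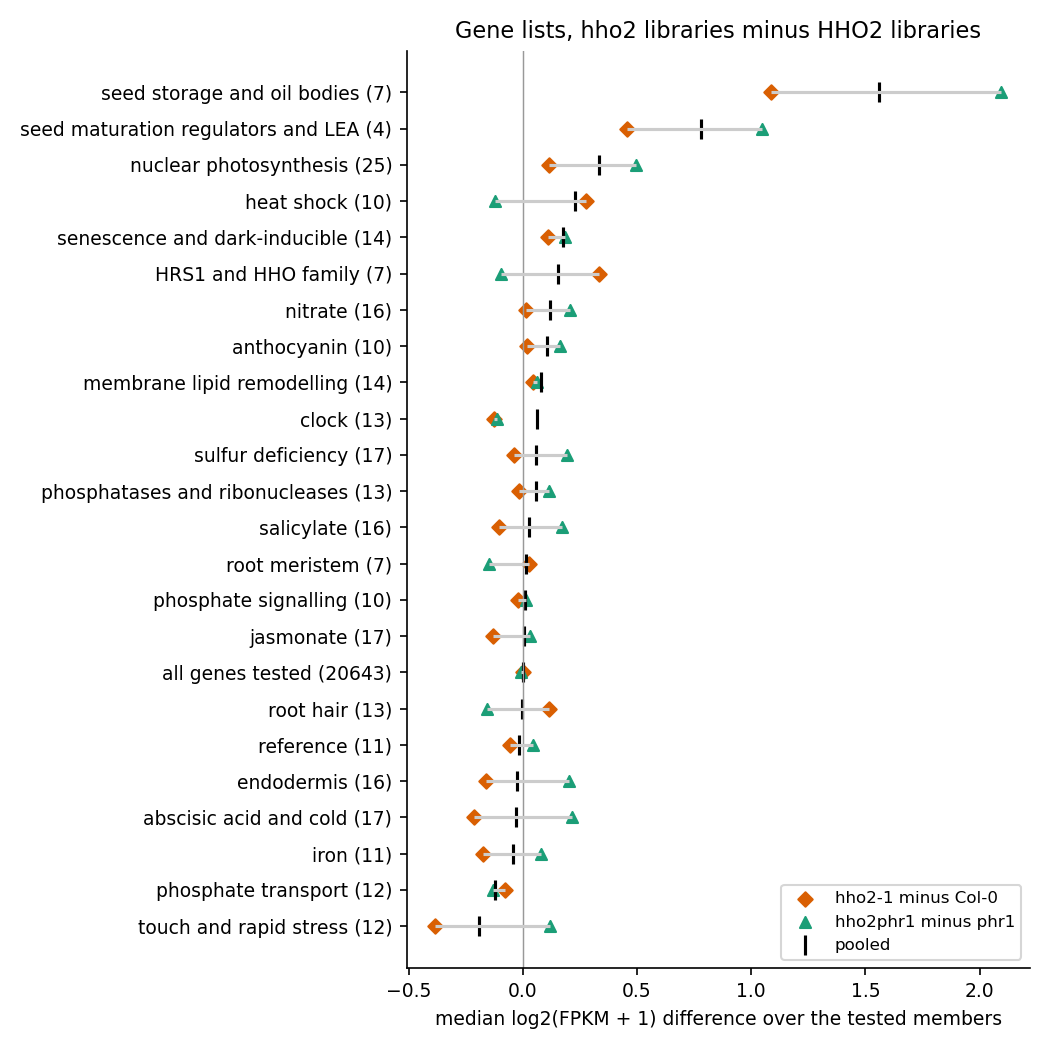
Median log2(FPKM + 1) difference of each gene list over its tested members (number in brackets), for hho2-1 minus Col-0 (diamonds), hho2phr1 minus phr1 (triangles) and the pooled value (bars). Both seed lists (pooled 1.56 and 0.78) and photosynthesis (0.33) lie farthest above all genes (-0.0008), and several lists have diamonds and triangles on opposite sides of 0.

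Senescence and dark-inducible genes lay above 0 in 13 of 14 cases (all genes 49.7%), with a median of 0.18. The member below 0 was SAG12, with the largest absolute pooled difference of the list (-1.17). In the PHR1 background 9 of 14 lay above 0, in the phr1 background 12, and in both 8 (all genes 23.6%). NAC092, a NAC factor that promotes leaf senescence, was at 28.8 FPKM in Col-0, 39.2 in hho2-1, 28.2 in phr1 and 38.3 in hho2phr1, a pooled difference of 0.43 (limma adjusted p 0.745). Both hho2 libraries lay above both others. DIN11 differed by 1.51 in the PHR1 background and -0.62 in the phr1 background. Heat shock genes had a median of 0.23 over 10, with 0.28 and -0.12 in the PHR1 and phr1 backgrounds. HSP17.6A, a small heat shock protein gene, was at 1.71 FPKM in Col-0, 4.90 in hho2-1, 2.96 in phr1 and 5.98 in hho2phr1, a pooled difference of 0.97 (limma adjusted p 0.487). Of these genes, 0 passed limma.

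Pooled medians of the remaining lists ran from -0.19 to 0.11. Sulfur deficiency genes stood at 0.06 over 17, where BGLU28, a beta-glucosidase of sulfur-starved plants, was at 5.90 FPKM in Col-0, 14.3 in hho2-1, 3.01 in phr1 and 5.02 in hho2phr1 (pooled 0.87). Anthocyanin genes stood at 0.11 over 10, jasmonate genes at 0.006 over 17, salicylate genes at 0.03 over 16 and iron genes at -0.04 over 11. Abscisic acid and cold genes stood at -0.03 over 17. Touch and rapid stress genes stood at -0.19 over 12, with -0.38 in the PHR1 background and 0.12 in the phr1 background. CBF2, a cold-induced transcription factor gene, was at 4.89 FPKM in Col-0, 1.02 in hho2-1, 2.60 in phr1 and 2.72 in hho2phr1, so its pooled -0.75 came from the PHR1 background. Reference genes stood at -0.02 over 11. None of the members of any list passed limma.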

How the data were processed

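Polyadenylated RNA of 4 genotypes was sequenced, 1 library each; per the labels' protocols the kit was ScriptSeq v2. Per the submitters' processing notes, the authors used TopHat2 2.0.11 for alignment, Cuffdiff 2.2.1 for quantification and the TAIR10 build. The deposited values are FPKM with the authors' 95% interval and a status per gene, per the file headers. Annotation release, library type in the software, multiread handling and scaling between libraries are not given in the sources used here. Library columns were matched to genotypes by name (dbl is hho2phr1 and WT is Col-0).

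From these values, log2(FPKM + 1) was fitted with limma 3.58.1 in R 4.3.3 on the hho2 and phr1 alleles. The fit used an intensity trend and Benjamini-Hochberg adjustment over 20643 genes. It was also run on simulated libraries with additive alleles and spread taken from the authors' intervals. That setting holds no spread between plants and no failure of the alleles to add, so it cannot show how reliable the calls are. Depth was estimated from the whole-fragment steps of 245 to 267 low genes per library, of whose values 99.2% to 99.6% were whole within 0.05 fragment, with 200 nucleotides subtracted from transcript length. A low gene's interval is wide, and depth limits precision accordingly. The members and gene lists were chosen with earlier results of these data known. Named genes are the targeted family, genes past limma with a difference of at least 1 on transcripts of at least 200 nucleotides, up to 4 members per list with the largest pooled difference, and neighbours of HHO2. Further members are named for their role. Gene names come from the table and the TAIR10.1 annotation, which matched 32810 genes, and HHO1 to HHO6 were assigned by locus from general knowledge. Chromosome lengths equal those of TAIR10, and 32809 of 32810 nuclear intervals overlap their reference locus, so promoter letters were read from TAIR10.1 (RefSeq). The deposited interval had the same start and end as in TAIR10.1 for 8985 genes. Elsewhere the window follows the TAIR10.1 gene start, and for AT2G43240 and CRA1 it does not adjoin the deposited interval. A promoter is 250 bases before the annotated start, searched for 6 motifs on both strands. GAATATTC also matches GNATATNC and GAANNTTC. In all, 4249 genes share an interval with another gene.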

Additional observations from a re-analysis of the deposited data

Results flagged for a closer look

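The hho2 difference went opposite ways in the PHR1 and phr1 backgrounds for 6 genes with the authors' intervals apart in each, and none of these contrasts was tested, since each background has 1 library a side. The gap, the difference in the phr1 background less that in the PHR1 background, was 1.70 for ECS1, at 84.1 FPKM in Col-0, 39.6 in hho2-1, 130.0 in phr1 and 202.2 in hho2phr1. It was 1.55 for AT2G25510 (98.3, 59.6, 171.5 and 307.0 FPKM in the same order) and 1.77 for the cytochrome P450 gene CYP716A2 (35.7, 21.8, 15.2 and 33.3 FPKM). It was -1.40 for AT4G22505, of the lipid-transfer protein superfamily (99.3, 158.7, 124.6 and 74.6 FPKM). The chloroplast gene RPL22 had a gap of 2.38 and CPuORF13 of -4.02, and both share an interval with other genes. The pooled differences of these 6 genes lay between -0.22 and 0.20.

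In 4 lists, at least 75% of members lay on one side of 0 in the PHR1 background and at least 75% on the other side in the phr1 background, again untested. The gap between medians was 0.28 for salicylate genes, 0.43 for abscisic acid and cold genes, 0.37 for endodermis genes and -0.27 for root hair genes. After rescaling to equal sums, 7 of 16 salicylate genes lay above 0 in the PHR1 background. Of 13 root hair genes, 4 then lay above 0 in the phr1 background, so neither list still met the 75% rule. Reference genes also split, with 11 of 11 below 0 in the PHR1 background and 8 of 11 above in the phr1 background (medians -0.06 and 0.04). Medians of other lists had opposite signs with fewer members on 1 of the sides, such as touch and rapid stress (-0.38 and 0.12, with 11 of 12 below and 8 of 12 above 0) and heat shock (0.28 and -0.12). In the endodermis list, TIP2;3, a tonoplast aquaporin, was at 14.8 FPKM in Col-0, 6.75 in hho2-1, 14.7 in phr1 and 14.5 in hho2phr1. In the salicylate list, PR2, a glucanase gene of defence, was at 9.16, 7.49, 6.197 and 12.9 FPKM in the same order.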

How the results depend on the processing

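Of the results, the count of 28 genes with intervals apart in both backgrounds held (within 1.5 times) under the alternatives run for it, while counts of calls did not. AT2G43240 was lower in both backgrounds (-2.72 and -2.61). Neither a pseudocount nor leaving a library out could therefore turn its direction. The 2-fold counts of 75 higher and 59 lower became 156 and 112 with a pseudocount of 0.1, and 23 and 24 with 5. They became 10 and 8 with FPKM of at least 1 required in all 4 libraries, and 26 and 12 without transcripts under 200 nucleotides, an alternative chosen after seeing the data. With a filter at 5 FPKM the higher count was 48. With 1 library left out, the higher count ran from 84 to 129 and the lower from 94 to 96. The limma counts of 3 higher and 5 lower became 0 and 0 with no filter and with FPKM of at least 1 in all libraries, and 0 and 1 without short transcripts. The lower count was 2 with FPKM of at least 5 and 3 after rescaling to equal sums. With a library left out and no phr1 term, the fit takes the lone library of a group to vary like the others, so its calls are not counted here. The cause of these shifts was not tested. Pooled differences turned sign for HRS1 (0.0234) and GAPC2 (0.0224) after rescaling and for PHR1 (-0.00832) with a pseudocount of 0.1. The phr1 term already sets each hho2 library beside its partner. No further pairing was possible because each genotype has 1 library and the labels carry no shared replicate numbers. Depth limits genes under about 1 FPKM and short transcripts.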
